A study of Mus musculus with 2 samples.

Results

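Messenger RNA of 7 genes of the neutrophil-attracting CXC chemokine system was followed through cells sorted from inflamed mouse gingiva. The genes are the ligands Cxcl1, Cxcl2, Cxcl3, Cxcl5 and Cxcl12 and the receptors Cxcr2 and Cxcr4, picked by name from the 32285 genes of the count matrices. They were described in every cell with at least 500 unique molecular identifiers (UMIs, each the tag of 1 captured transcript), at least 250 detected genes and at most 10% mitochondrial UMIs. There were 2 single-cell libraries, 1 for each group.

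One group was recipient mice given bone marrow of which 10% was Tet2-/-, written 10% Tet2-/- BMT. The other received bone marrow of which 10% was Tet2+/+ donor marrow, written 10% Tet2+/+ BMT, and its genotype label reads 10% WT BMT. Tet2 encodes an enzyme that oxidises 5-methylcytosine in DNA and is often mutated in clonal haematopoiesis. Both groups carried a ligature on the tooth for 5 days, which induces periodontitis, starting 12 weeks after transplantation, so no gingiva without a ligature was in the comparison. The described sort gates differ. CD45.2+CD11b+ cells were taken from 10% Tet2-/- BMT mice and CD45+CD11b+ cells from 10% Tet2+/+ BMT mice, although the title of the second library also names CD45.2+CD11b+ cells. A CD45.2 gate can keep cells of 1 congenic source whereas a CD45 gate keeps leukocytes of every source, so genotype, gate and library cannot be told apart here. The labels do not give the number of mice behind a library.

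With 1 library for each group there was no test of a difference between groups. Levels are UMIs summed over the cells of a class, scaled to counts per 1000000 UMIs of that class (CPM), with exact Poisson 95% intervals in brackets. Ratios have exact conditional binomial intervals and shares of cells have exact Clopper-Pearson intervals. All of these cover counting error only. A difference between libraries was called large when it passed 1.5-fold after 10 CPM were added to both values, for genes that reached 50 CPM in at least 1 library and 100 UMIs in the 2 together. Counting was at the 3′ ends of transcripts, so a level does not scale with transcript length, although capture can differ between genes.

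The 10% Tet2-/- BMT library held 9596 such cells with a median of 5920 UMIs, and the 10% Tet2+/+ BMT library held 11672 with a median of 5009. The libraries shared 31 cell barcodes. Of 29 clusters, made without the 7 genes and their close relatives, 8 were neutrophil-like by marker genes and held 4795 and 6628 cells at median depths of 4123 and 4169 UMIs. They made up 49.97% of the 10% Tet2-/- BMT cells and 56.79% of the 10% Tet2+/+ BMT cells. Although both gates selected CD11b, B cell-like and T cell-like clusters were present too. Tet2 itself was at 137.4 CPM in neutrophil-like cells of the 10% Tet2-/- BMT library and 109.3 in the other (ratio 1.256, 1.197 to 1.318). That level checks nothing about the label, since the sources used here do not say which exons were deleted and the tags read the 3′ end. Barcodes with 1 to 50 UMIs, which mostly hold RNA free in the suspension, were kept as a background reference. Xist and Y-linked transcripts separated the libraries. Among neutrophil-like cells with either, 1265 carried Xist alone and 214 Y-linked transcripts alone in 10% Tet2-/- BMT, against 2 and 3627 in 10% Tet2+/+ BMT.

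Cxcl1, Cxcl2, Cxcl3 and Cxcl5 are ELR-type CXC chemokines, named for a short glutamate-leucine-arginine motif ahead of the first cysteines, and they draw neutrophils along a gradient through the receptor Cxcr2. Cxcr2 is taken into the cell after binding its ligands. Cxcl12, made by stromal cells of bone marrow, holds neutrophils there through Cxcr4, and the balance of Cxcr2 and Cxcr4 governs release into blood and return. In periodontal tissue this system brings neutrophils to the gum pocket, and ELR chemokine genes are classical targets of NF-kB, the transcription factor switched on by IL-1, TNF and bacterial products.

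Cxcl1, Cxcl2 and Cxcl3 lie together on chromosome 5, and their promoters are shown because one run of letters stands before all 3 start sites. The longest run shared by the 250 bases before their starts was GGGAATTTCCC, which has the form of a κB element, the DNA sequence that NF-kB binds. It lay 71 bases before the start of Cxcl1, 97 before that of Cxcl2 and 73 before that of Cxcl3. These are RefSeq starts, and that of Cxcl2 lies downstream of the gene start given with its levels, which comes from the GENCODE annotation. The stretches that follow are 100 bases each, on the plus strand of GRCm38.p6 (RefSeq), at chr5:90891134-90891233, chr5:90903762-90903861 and chr5:90785988-90786087, with the shared run in capitals.
Cxcl1: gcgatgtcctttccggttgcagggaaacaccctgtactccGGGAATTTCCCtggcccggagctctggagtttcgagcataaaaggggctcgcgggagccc
Cxcl2: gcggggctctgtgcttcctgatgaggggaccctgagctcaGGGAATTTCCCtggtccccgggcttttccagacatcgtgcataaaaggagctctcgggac
Cxcl3: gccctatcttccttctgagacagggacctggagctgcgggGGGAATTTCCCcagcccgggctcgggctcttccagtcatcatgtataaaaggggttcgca

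On either strand, 14 of 32851 promoters (0.04262%) held that run in the same 250-base window. The windows of Cxcr2, Cxcr4 and Cxcl12 did not hold it. The run was read off these promoters, so its presence in them is a description of letters, not a bound site. Of the 7 genes, 6 had a promoter entry; Cxcl5 was the other.

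Cxcl2 (mm10 chromosome 5, 90903871 to 90905938), which draws neutrophils and is made by neutrophils themselves, was by far the most abundant of the 5 ligands. In neutrophil-like cells it stood at 16559.0 CPM (16506.7 to 16611.4) in 10% Tet2-/- BMT and 9488.6 CPM (9455.1 to 9522.1) in 10% Tet2+/+ BMT. At least 1 Cxcl2 UMI was found in 96.98% and 93.48% of those cells. After each cell was thinned to 1000 UMIs, which left 4712 and 6488 of them, the shares were 89.6% (88.69 to 90.46) and 80.67% (79.69 to 81.63). The B cell-like cluster led by Cd79a, which should lack Cxcl2, gave 16.09% and 14.92% at the same thinned depth, from a median of 4556.5 UMIs.

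Outside neutrophil-like cells, the named classes had Cxcl2 at levels several-fold lower. Macrophage-like cells were at 2282.8 and 1702.3 CPM (10% Tet2-/- BMT first, here and below) and monocyte-like cells at 1858.1 and 1461.6 CPM. Within the latter the Ace-led cluster, with genes of patrolling monocytes, was at 4569.7 and 2687.1 CPM and the Fn1-led cluster at 1899.7 and 1282.2 CPM. Immature neutrophil-like cells, marked by granule genes, were at 1034.6 and 556.6 CPM. Those 3 levels and their neighbours in the order cannot be read as expression from the level alone, because barcodes with 1 to 50 UMIs held Cxcl2 at 6474.8 and 4862.5 CPM. Against S100a8, an abundant neutrophil transcript, those near-empty barcodes had 99.93 and 72.76 Cxcl2 UMIs per 1000 S100a8 UMIs. Macrophage-like cells had 470.2 and 277.3, above that ratio in both libraries, and monocyte-like cells 139.8 and 108.6. Immature neutrophil-like cells had 7.829 and 3.506, below it, with S100a8 very high in those cells. Of all Cxcl2 UMIs in kept cells, 65.64% and 74.96% came from neutrophil-like cells and 19.02% and 9.818% from clusters left unnamed. Among the unnamed clusters, those led by Obp1a, Ltf and Ccl8 came nearest to the neutrophil markers. They held 26432, 24568 and 6880 of the 111517 unnamed Cxcl2 UMIs in 10% Tet2-/- BMT. In 10% Tet2+/+ BMT they held 15672, 9451 and 6180 of 40410. The unnamed Arg1-led cluster held 52451 and 7362.

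Cxcl3, a close relative of Cxcl2 with the same receptor, was far less abundant than Cxcl2 in neutrophil-like cells, at 356.1 and 326.3 CPM. After thinning it was found in 12.2% and 10.57% of them, against 0.8696% and 0.2618% of the Cd79a-led cells. Near-empty barcodes were at 223.3 and 221.3 CPM. Monocyte-like cells were at 40.07 and 50.34 CPM and macrophage-like cells at 18.69 and 27.44 CPM. Cxcl3 was thus found in a minority of neutrophil-like cells, whereas Cxcl2 was found in most of them. In the immature cluster led by Elane, a primary granule protease, Cxcl3 had 403 and 25 UMIs, and 3 cells of 10% Tet2-/- BMT held 67.25% of the former.

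Cxcl1, the ligand made mainly by stromal and epithelial cells and macrophages, was scarce. It had 791 and 793 UMIs in 117 and 146 cells of the whole libraries. Neutrophil-like cells were at 11.92 and 6.858 CPM, with a UMI in 52 and 70 cells, and macrophage-like cells were at 19.65 and 18.89 CPM. In osteoclast-like cells, 35 of the 40 UMIs of the 10% Tet2+/+ BMT library lay in 1 cell. Cxcl1, Cxcl2 and Cxcl3 are similar paralogs, and the sources used here do not say how reads matching more than 1 of them were counted, so small levels of one could hold reads of another.

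Cxcl5, a ligand of epithelial and stromal cells, had 120 and 64 UMIs in 19 and 16 cells. A single cell held 80% of them in 10% Tet2-/- BMT and a single cell held 70.31% in 10% Tet2+/+ BMT, so its levels describe those cells and no class. Cxcl12, the ligand of Cxcr4, had 201 and 49 UMIs in 48 and 28 cells. In epithelial-like cells, of which there were 34 and 45, it had 147 and 4 UMIs, giving 340.6 CPM (287.8 to 400.3) and 8.045 CPM (2.192 to 20.6). A single cell held 100 of those 147. Near-empty barcodes of 10% Tet2-/- BMT held it at 46.22 CPM (37.88 to 55.86) and those of 10% Tet2+/+ BMT at 5.235 CPM (2.613 to 9.367). In neutrophil-like cells Cxcl12 had 8 and 9 UMIs in all, too few to describe.

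**Figure D1:**
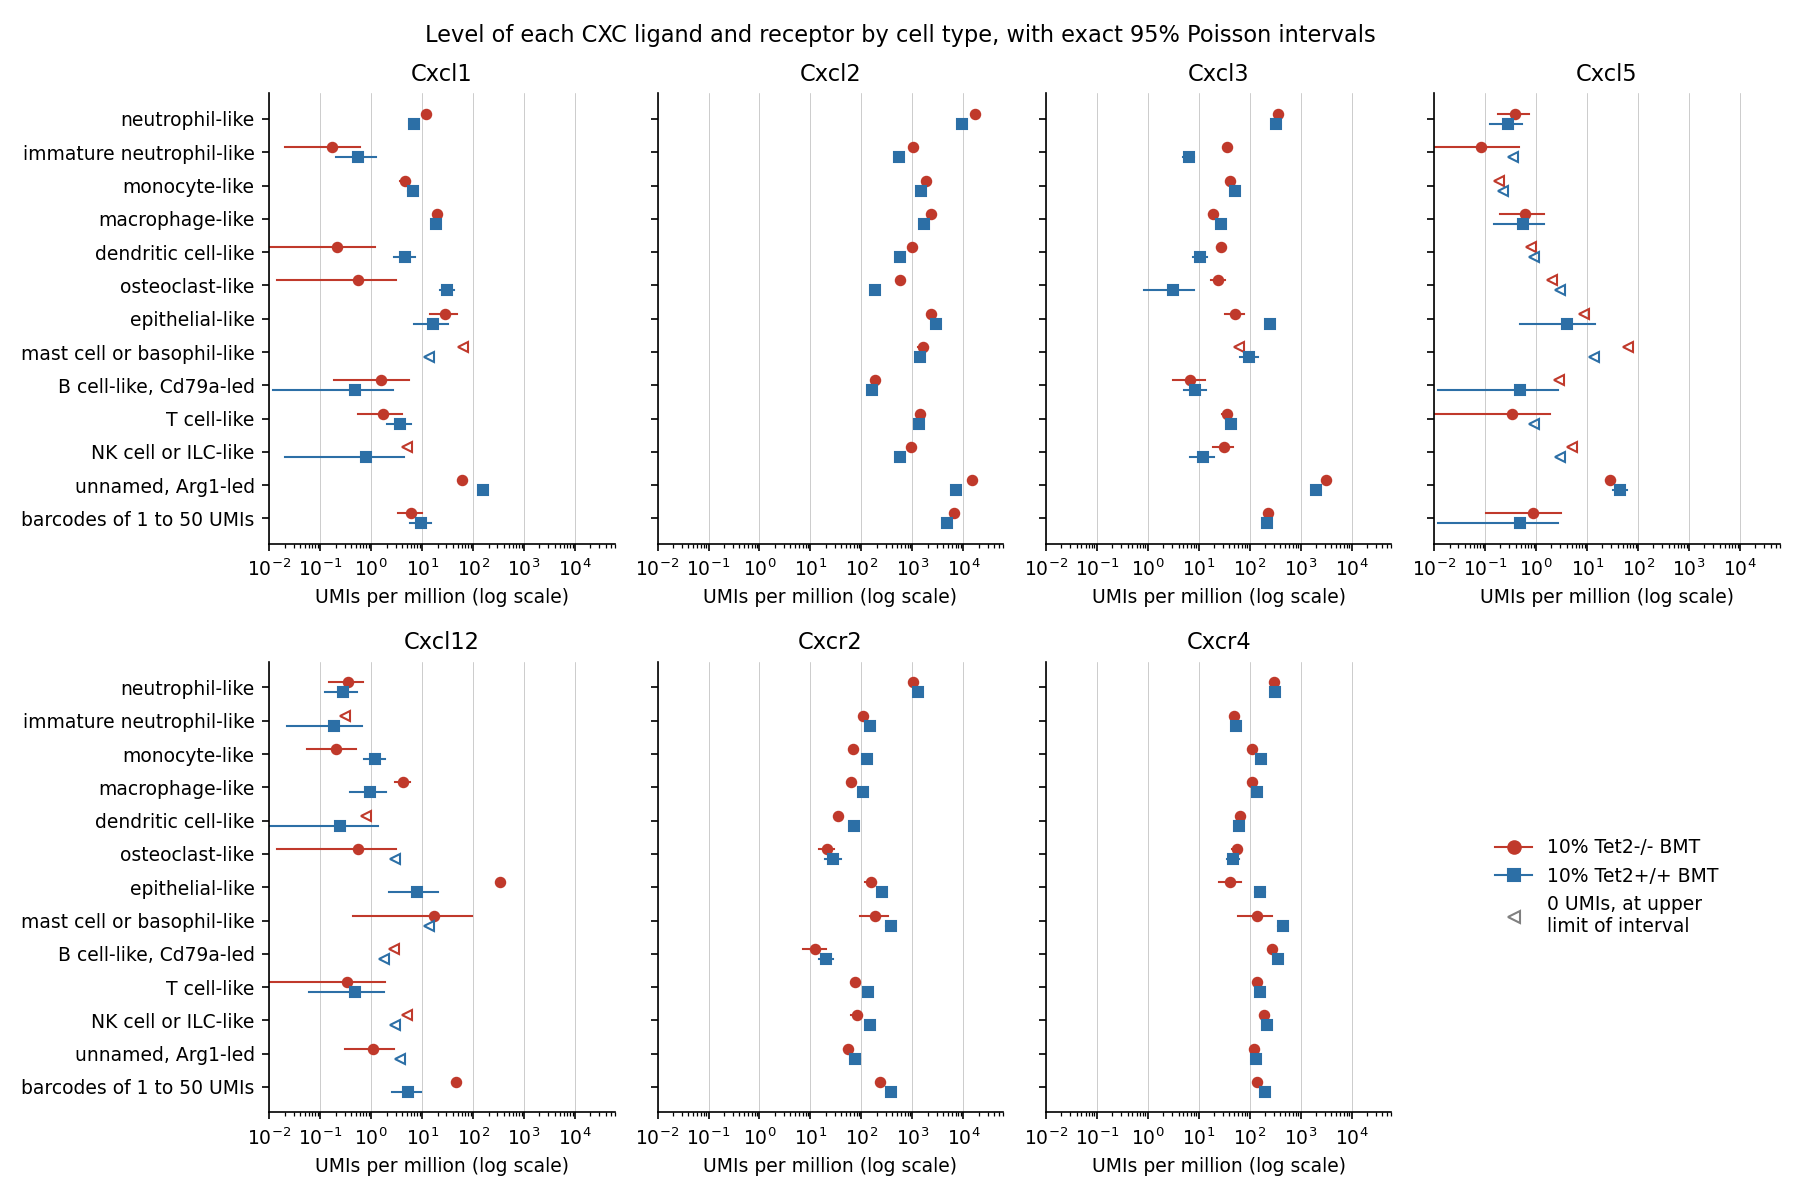
Level of each of the 7 genes in CPM (log axis) by marker-defined cell type, for the 10% Tet2-/- BMT library (circles) and the 10% Tet2+/+ BMT library (squares), with exact 95% Poisson intervals; open triangles stand at the upper limit where no UMI was counted. Cxcl2 was at 16559.0 and 9488.6 CPM in neutrophil-like cells, and barcodes with 1 to 50 UMIs, at 6474.8 and 4862.5 CPM, lay above every named class other than the neutrophil-like one.

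Cxcr2 (mm10 chromosome 1, 74153989 to 74161246), the G protein-coupled receptor of the ELR ligands, marked neutrophil-like cells. Its level there was 1025.2 CPM (1012.2 to 1038.3) in 10% Tet2-/- BMT and 1281.7 CPM (1269.4 to 1294.1) in 10% Tet2+/+ BMT. After thinning, 59.66% and 67.86% of neutrophil-like cells held it, against 0.4348% and 1.047% of the Cd79a-led B cell-like cells. Every other named class lay below near-empty barcodes, which were at 227.7 and 373.1 CPM, with 1 exception, mast cell or basophil-like cells of the 10% Tet2+/+ BMT library at 378.2 CPM from 37 cells. Monocyte-like cells were at 68.54 and 128.3 CPM, macrophage-like cells at 62.94 and 106.5 CPM and immature neutrophil-like cells at 105.0 and 149.9 CPM.

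Within monocyte-like cells, thinned cells with a Cxcl2 UMI held Cxcr2 in 14.31% and 20.43%, and those without in 1.387% and 3.886%. Macrophage-like cells gave 7.119% and 13.65% with Cxcl2, and 2.156% and 3.817% without. So the ligand and the receptor went together in cells that are known to carry little Cxcr2. The share of such cells that are doublets with a neutrophil, or hold neutrophil RNA, was not tested. In neutrophil-like cells the 2 shares were close: Cxcr2 was in 59.9% and 67.79% of Cxcl2-positive cells and in 57.55% and 68.18% of Cxcl2-negative cells.

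Cxcr4 (mm10 chromosome 1, 128588199 to 128592293, minus strand), the Cxcl12 receptor, was spread over more classes than Cxcr2. Neutrophil-like cells were at 292.2 CPM (285.3 to 299.2) and 314.9 CPM (308.9 to 321.1). The Cd79a-led B cell-like cluster was at a like level, 270.0 and 364.6 CPM. In mast cell or basophil-like cells it stood at 136.2 and 441.9 CPM, from 8 and 118 UMIs of 10 and 37 cells, and the second value was the highest of any named class in that library. NK cell or ILC-like cells were at 192.6 and 221.7 CPM. T cell-like cells, at 136.9 and 161.2 CPM, and monocyte-like cells, at 112.3 and 168.8 CPM, changed places between the libraries. Immature neutrophil-like cells were among the lowest, at 48.80 and 52.65 CPM. Near-empty barcodes were at 137.8 and 201.3 CPM. Cells of neutrophil-like clusters gave 54.67% of all Cxcr4 UMIs in 10% Tet2+/+ BMT, against 80.25% of Cxcr2 UMIs.

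Cxcl2, Cxcl3, Cxcr2 and Cxcr4 each spanned a wider range over the neutrophil-like clusters than between the 2 libraries of any 1 cluster. Each of the 8 clusters is named here by its leading gene. Cxcl2 was lowest in the Mmp8-led cluster, at 3012.3 and 1983.4 CPM, and highest in the Ccl3-led cluster, at 56571.1 and 57418.3 CPM, where Ccl3 is itself a chemokine. The Acod1-led cluster was next, at 30218.1 and 29656.2 CPM; Acod1 makes itaconate in activated myeloid cells. The others were between, in the order Retnlg (6018.7 and 3799.1), Jaml (9130.0 and 6177.3), Siglecf (11650.3 and 7436.8), Csf3r (12983.7 and 10202.1) and Ifit1 (16077.3 and 9324.7) in 10% Tet2-/- BMT; in 10% Tet2+/+ BMT the Csf3r-led cluster stood above the Ifit1-led one.

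Cxcr2 did not follow that order. The Ccl3-led cluster had 483.8 and 514.8 CPM, the lowest of the 8, and the Csf3r-led cluster had 1523.4 and 1859.9 CPM, the highest, although in 10% Tet2-/- BMT the Ifit1-led cluster, at 1521.5 CPM, was not separable from it. Cxcl2 in Ccl3-led over Csf3r-led cells was 4.357 (4.307 to 4.408) and 5.628 (5.552 to 5.705), whereas Cxcr2 was 0.3176 (0.2969 to 0.3395) and 0.2768 (0.249 to 0.3069). From the Mmp8-led to the Csf3r-led cluster Cxcl2 was 4.31 and 5.144 times higher and Cxcr2 was 2.6 and 2.498 times higher. The 2 genes did not move in parallel over all clusters between these. Siglecf-led cells had more Cxcl2 than Retnlg-led and Jaml-led cells but lower Cxcr2, at 745.8 and 889.6 CPM. Cxcr2 was at 1029.5 and 1233.7 CPM in Retnlg-led cells and 1406.6 and 1728.2 CPM in Jaml-led cells. Acod1-led cells kept Cxcr2 at 1234.9 and 1398.4 CPM with very high Cxcl2.

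Cxcr4 separated a different set of clusters. It was lowest in the Mmp8-led cluster (62.77 and 81.10 CPM) and the Retnlg-led one (78.33 and 94.23 CPM). It was highest in the Csf3r-led cluster, at 588.7 and 617.7 CPM, 9.378 and 7.616 times the Mmp8-led level. Ccl3-led cells were at 444.1 and 471.2 CPM, 0.7544 and 0.7629 of the Csf3r-led level. Thus Cxcl2 and Cxcr4 were both low in Mmp8-led and Retnlg-led cells, and Ccl3-led cells had high Cxcl2 and Cxcr4 with low Cxcr2. Cxcl3 was the steepest of the 4 genes, at 1709.1 and 2979.7 CPM in Ccl3-led cells and 16.42 and 26.04 in Mmp8-led cells, a span of 104.1 and 114.4 times.

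**Figure D2:**
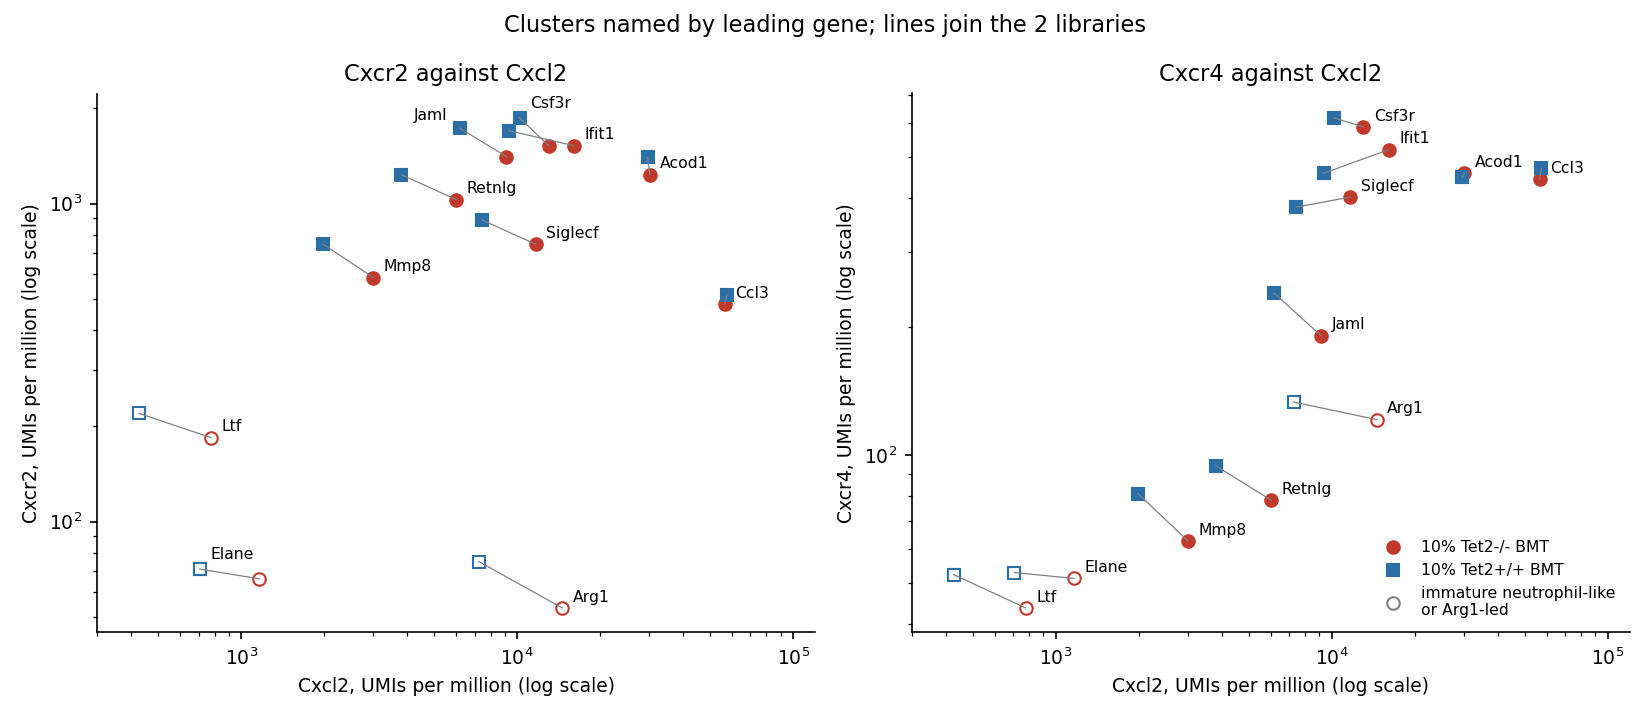
Cxcr2 (left) and Cxcr4 (right) against Cxcl2, all in CPM on log axes, for each neutrophil-like cluster (filled), immature neutrophil-like cluster (open) and the unnamed Arg1-led cluster (open), with a line joining the 2 libraries. The Ccl3-led cluster has the highest Cxcl2 (56571.1 and 57418.3 CPM) with Cxcr2 below all other neutrophil-like clusters (483.8 and 514.8 CPM).

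Cells were then ranked by Cxcl2 itself, within each library. Cells thinned to 1000 UMIs were put in bins of Cxcl2 UMIs, and the receptors were given as CPM of the UMIs other than Cxcl2. Cxcr2 was at 1044.9 and 1371.6 CPM in cells with 0 Cxcl2 UMIs and 1210.9 and 1554.2 in cells with 10 to 19. Cells with 20 or more were at 1018.8 and 1283.3, a ratio to Cxcl2-free cells of 0.975 (0.8806 to 1.081) and 0.9356 (0.8693 to 1.007). Both intervals include 1. With the 7 genes kept for clustering the ratios were 0.8035 (0.7182 to 0.9006) and 0.8625 (0.8001 to 0.9297), and at resolution 0.5 they were 0.7991 (0.7168 to 0.8923) and 0.8605 (0.7993 to 0.9262), all below 1, so the call depends on how the cells were clustered.

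Within the top bin Cxcr2 was lower with more Cxcl2: cells with 20 to 39 Cxcl2 UMIs had Cxcr2 at 1208.5 and 1511.0 CPM, those with 40 to 79 at 875.1 and 899.7, and those with 80 or more at 473.7 and 593.3. The ratio of the last to Cxcl2-free cells was 0.4534 (0.3492 to 0.5811) and 0.4326 (0.3155 to 0.5796), a split made after the values were seen, with 172 and 87 cells. Of these cells 75% and 57.47% belonged to the Ccl3-led cluster. Without that cluster the ratio at 20 or more was 1.202 (1.084 to 1.335) and 1.037 (0.9629 to 1.117). The ratio at 80 or more was not computed without it. Within the Csf3r-led cluster the ratio at 20 or more was 0.871 (0.6989 to 1.09) and 0.9819 (0.837 to 1.152).

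Cxcr4 was higher in Cxcl2-rich cells, then lower again at the top. It was 275.5 and 312.6 CPM in Cxcl2-free cells and 537.4 and 495 in cells with 20 to 39 Cxcl2 UMIs, and in all cells with 20 or more it was 1.752 (1.454 to 2.124) and 1.503 (1.311 to 1.724) times the Cxcl2-free level. In cells with 40 to 79 it was at 419.8 and 441.8 CPM and in those with 80 or more at 388.2 and 348.3 CPM. Within single clusters the difference was mostly not seen: the ratio was 0.9177 (0.647 to 1.318) and 0.9763 (0.7407 to 1.287) in Csf3r-led cells and 0.4964 (0.3 to 0.8813) in Acod1-led cells of 10% Tet2-/- BMT, while Siglecf-led cells were at 2.312 (1.247 to 4.614) and 1.4 (1.004 to 1.937). Cxcl3 increased over the whole range, from 24.49 and 35.09 CPM to 3467.4 and 7261.8 in cells with 80 or more. Nfkbia, the inhibitor that NF-kB induces, was 5.7 times higher (5.221 to 6.235) in Cxcl2-rich than in Cxcl2-free cells of 10% Tet2-/- BMT, and in 10% Tet2+/+ BMT it was at 1089.3 and 4983.5 CPM in Cxcl2-free and Cxcl2-rich cells. Csf3r, the receptor of G-CSF and a general neutrophil transcript, was at 1.294 times in 10% Tet2-/- BMT.

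**Figure D3:**
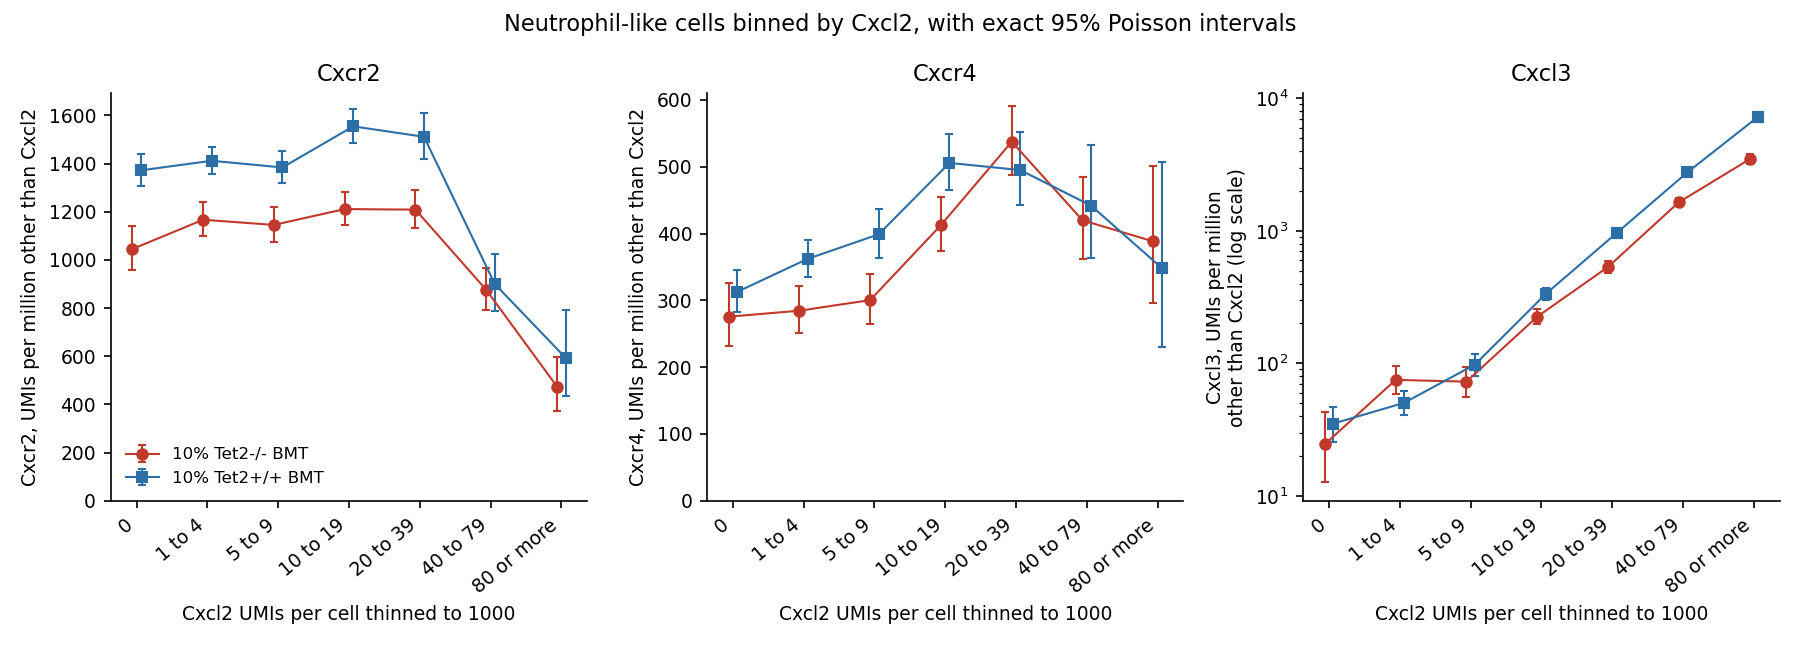
Cxcr2, Cxcr4 and Cxcl3 in CPM of the UMIs other than Cxcl2 (Cxcl3 on a log axis) in neutrophil-like cells binned by Cxcl2 UMIs after thinning to 1000, with exact 95% Poisson intervals, for the 10% Tet2-/- BMT library (circles) and the 10% Tet2+/+ BMT library (squares). Cxcr2 stays between 1044.9 and 1210.9 and between 1371.6 and 1554.2 up to 39 Cxcl2 UMIs and is at 473.7 and 593.3 from 80 on, while Cxcl3 is highest there.

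Across units of cluster and library, gene by gene likeness of log2(CPM + 10) was computed as a description. The points share libraries, sequencing depth and free RNA and are not independent. Over the 16 neutrophil-like units (2048 genes), the genes most like Cxcl2 were Hcar2 (0.99), a receptor of hydroxy-carboxylic acids, then Eif1, Spag9, Slc7a11 and Etf1 (0.98 each); Slc7a11 is the cystine transporter. The least like were Hipk1 and Lmo4 (-0.97) and Rinl (-0.96). Among the 7 genes, Cxcl3 was at 0.94, Cxcl1 at 0.84, Cxcr4 at 0.75 and Cxcr2 at -0.16. Over all 50 units the Cxcl2 to Cxcr2 value was 0.77, a contrast of neutrophils with other cells.

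Cxcr2 over the same 16 units was most like Stk17b (0.98), Adipor1 (0.95), Dazap2 (0.94) and Wipf1 (0.93), and least like Cd24a (-0.93), an early neutrophil surface protein, with Cd63 and Ldha (-0.88). Cxcr4 was most like Ppp1r15a and Zfp36 (0.98), then Tagln2, Adgre5 and Il10ra (0.97). The least like was Lcn2 (-0.98), a granule protein of maturing neutrophils, followed by Cd177 and Adpgk (-0.97). The Cxcr4 to Cxcr2 value was 0.27.

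Between the libraries, neutrophil-like cells had 54 of 2361 genes (2.29%) past 1.5-fold higher in 10% Tet2-/- BMT and 175 (7.41%) lower. Of the 7 genes, 4 had enough UMIs: Cxcl2 was past 1.5-fold higher, and Cxcl3, Cxcr2 and Cxcr4 were between the limits. The libraries differed by 1.745 (1.737 to 1.753) for Cxcl2, 1.091 (1.06 to 1.123) for Cxcl3, 0.7999 (0.7872 to 0.8127) for Cxcr2 and 0.9277 (0.8995 to 0.9567) for Cxcr4 (10% Tet2-/- BMT over 10% Tet2+/+ BMT). The median gene stood at -0.10 on the log2 scale. A trimmed-mean scaling moved that median to 0.20 and a median-of-ratios scaling to 0.24. Under these the split of large differences went from 54 higher and 175 lower to 237 and 53, and 288 and 44. Each of these scalings multiplies every gene by 1 factor. Under the factors Cxcl2 came to 2.166 and 2.233, Cxcl3 to 1.355 and 1.397, Cxcr2 to 0.9928 and 1.024 and Cxcr4 to 1.151 and 1.187. Relative to the median gene, a comparison that a common factor leaves nearly as it is, Cxcr2 was lower, at -0.32 on the log2 scale beside -0.10, and Cxcr4, at -0.10, was level with it.

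The mix of neutrophil-like clusters differed between the libraries. The Ccl3-led cluster held 5.596% of 10% Tet2-/- BMT cells and 1.576% of 10% Tet2+/+ BMT cells, and the Siglecf-led cluster 4.064% and 11.98%. Leaving out the Ccl3-led cluster brought the Cxcl2 ratio to 1.466, under the 1.5-fold limit, and that of Cxcl3 to 0.7987. Leaving out the Siglecf-led cluster brought the count of genes past 1.5-fold from 229 to 98 and the Cxcl2 ratio to 1.685. In an equal mix each cluster had the same weight in both libraries, its share of their pooled neutrophil-like UMIs. Cxcl2 was then at 1.206, Cxcl3 at 0.5531, Cxcr2 at 0.8366 and Cxcr4 at 0.967. Cxcl2 was above 1 in 7 of the 8 clusters, the exception being the Ccl3-led cluster at 0.9852. It was above the median gene of the cluster in all 8, but by only 0.016 and 0.025 on the log2 scale in the Ccl3-led and Acod1-led clusters. Its ratio within clusters reached 1.724 in the Ifit1-led cluster and was 1.019 in the Acod1-led cluster, whose cells also have high Cxcl2. Cxcr2 was below the median gene of the cluster in all 8 clusters and below 1 in all 8 by total UMIs, whereas the factors of the other scalings put it above 1 in 7 and 8. Its distance from the median gene was smallest in the Ccl3-led and Ifit1-led clusters, at -0.050 and -0.066 on the log2 scale. Cxcr4 was above the median gene in 4 of 8 clusters. Cxcl3 was above 1 in 3 of 8 clusters under all 3 scalings and at 0.4291 in the Acod1-led cluster.

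**Figure D4:**
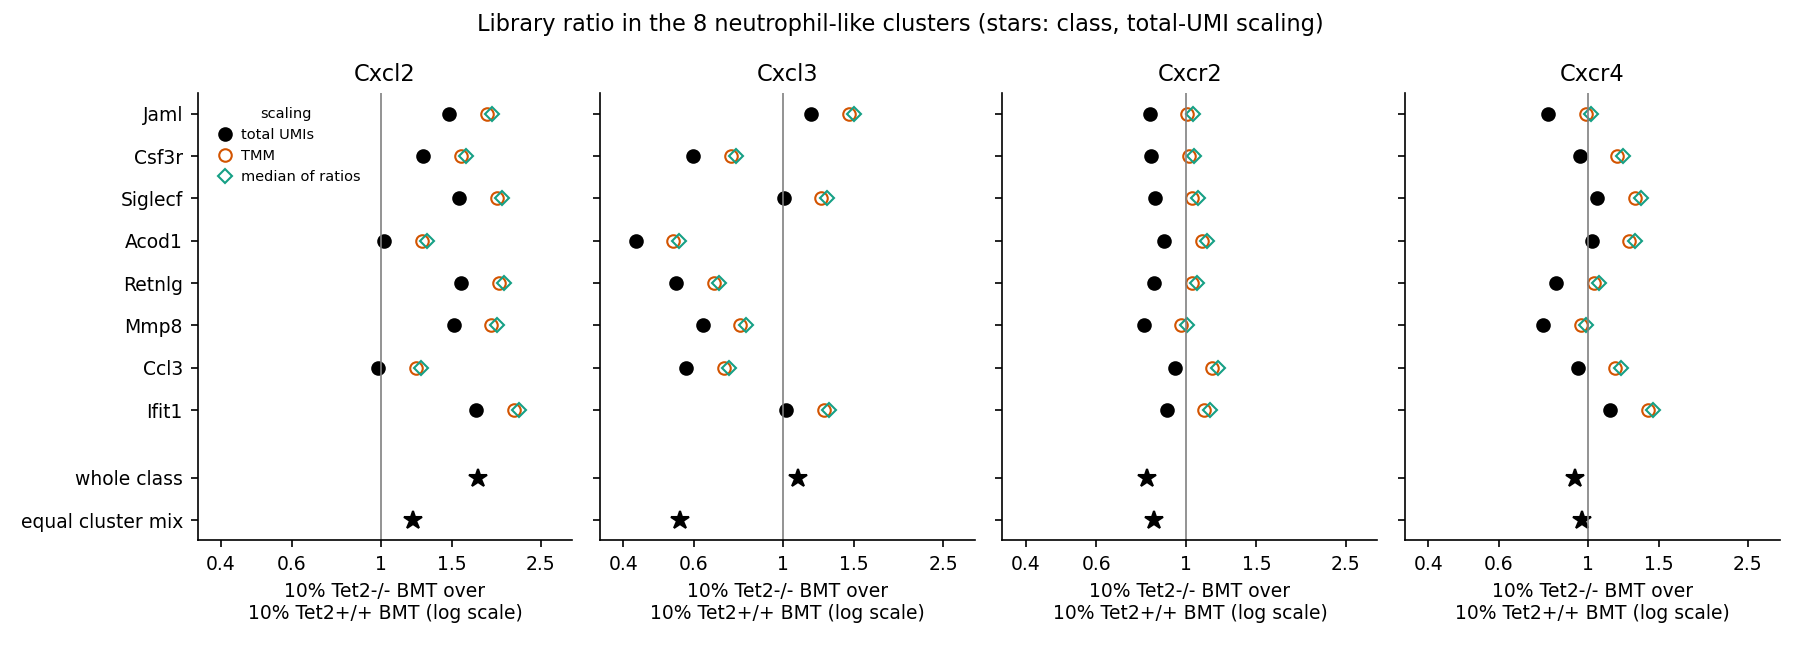
Library ratio (10% Tet2-/- BMT over 10% Tet2+/+ BMT, log axis) of Cxcl2, Cxcl3, Cxcr2 and Cxcr4 in each neutrophil-like cluster under 3 scalings, with stars for the whole class and for an equal cluster mix. Each scaling shifts all genes by 1 factor, so Cxcr2 lies below 1 in all 8 clusters by total UMIs and above 1 in 7 and 8 by the others. Against the median gene of the cluster Cxcl2 is higher and Cxcr2 lower in all 8. Some of these gaps are small: on the log2 scale Cxcl2 is at 0.016 in the Ccl3-led and 0.025 in the Acod1-led cluster, and Cxcr2 at -0.050 in the Ccl3-led one.

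Neutrophil-like cells with Xist and those with Y-linked transcripts had different Cxcl2 levels within the 10% Tet2-/- BMT library. In 10% Tet2-/- BMT, Cxcl2 was at 11457.3 CPM in Xist-only neutrophil-like cells and 25815.2 CPM in the 214 Y-only cells, and in 10% Tet2+/+ BMT at 9069.1 CPM in Y-only cells. Cxcr2 was at 874 and 942.3 CPM in the first library and 1254.1 CPM in the second. Cells with neither Xist nor Y-linked transcripts numbered 3296 in 10% Tet2-/- BMT and 2998 in 10% Tet2+/+ BMT. Their Cxcl2 was at 18350.9 and 10110.2 CPM. In 10% Tet2-/- BMT their median depth was 3846 UMIs, against 5363 in Xist-only and 4963.5 in Y-only cells. The ratio of Cxcl2 between Y-carrying cells of both libraries was 2.846 and that of the Xist-only cells of the first library to the Y-only cells of the second was 1.263, under the 1.5-fold limit. Cxcl3 was at 3.393 (3.193 to 3.602) and 0.6107 in the same pairs. What separates these cells was not tested.

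Other classes had Cxcl2 past 1.5-fold higher in 10% Tet2-/- BMT too, at ratios of 1.859 in immature neutrophil-like cells (4.28% of genes higher there), 1.696 in dendritic cell-like cells (0.904%), 1.677 in NK cell or ILC-like cells (2.24%), 1.628 in B cell-like cells (1.56%) and 3.073 in osteoclast-like cells (2.14%). The B cell-like value rested on the Ebf1-led cluster, at 6765.5 and 4284.5 CPM, since the Cd79a-led cluster was at 185.4 and 159.6 CPM. The neutrophil transcript S100a8 was at 24555.4 and 36666.3 CPM in the Ebf1-led cluster, against 2017.0 and 2256.6 in the Cd79a-led one. Their median depths were 10222 and 4556.5 UMIs. The share of Ebf1-led cells that are doublets with a neutrophil was not tested. Monocyte-like cells were at 1.271, macrophage-like cells at 1.341 and T cell-like cells at 1.067, while epithelial-like cells went the other way at 0.7773 (0.7159 to 0.8437). Each monocyte-like cluster differed by more than its class. The Fn1-led one was at 1.482. The ELR ligands together, mostly Cxcl2, were at 4654.9 and 2752.8 CPM in the Ace-led cluster and 735.4 and 497.6 in the Stmn1-led one. The latter held 283 of 1240 and 141 of 1190 monocyte-like cells, and this mix was not held equal. Few cells carried some of the class ratios: in 10% Tet2-/- BMT, 3 cells held 54.36% of the Cxcl2 UMIs of NK cell or ILC-like cells and 53.06% of those of the 38 osteoclast-like cells. Near-empty barcodes of the same libraries differed in the same direction, at 6474.8 and 4862.5 CPM. Cxcr2 was past 1.5-fold lower in monocyte-like cells (0.5342; 1.24% of genes lower), macrophage-like cells (0.5911; 1.62%) and T cell-like cells (0.5751; 1.29%), and likewise in dendritic cell-like cells (0.4905; 0.904%), NK cell or ILC-like cells (0.5459; 3.65%) and epithelial-like cells (0.585; 11.7%). Of the monocyte-like clusters, the Fn1-led and Ace-led ones were lower but did not pass 1.5-fold by themselves. Their Cxcr2 UMIs were 518 of 9030785 and 734 of 8645458 in the Fn1-led cluster, and 635 of 3158846 and 1201 of 4321047 in the Ace-led one. The Stmn1-led cluster had 217 of 7799393 and 216 of 3798162. Near-empty barcodes were at 227.7 and 373.1 CPM. The part of free RNA in these class ratios was not tested.

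The most Cxcl3-rich cells outside the neutrophil-like class were the 314 and 81 cells of an unnamed cluster led by Arg1. Arg1 breaks down arginine, and Spp1, Ccl22 and Inhba were also among its leading genes. Cxcl2 stood at 14554.6 and 7256.8 CPM there and Cxcl3 at 3079.6 and 1985.2 CPM, from 184 and 31 cells with a UMI. Cxcr2 was at 53.56 and 74.91 CPM, so that Cxcl2 UMIs per Cxcr2 UMI were 271.8 and 96.87, against 5.142 to 116.9 and 2.664 to 111.5 in neutrophil-like clusters. Both Cxcr2 levels lay below those of near-empty barcodes. The 76 Cxcr2 UMIs of 10% Tet2+/+ BMT lay in 13 cells, and 1 cell held 46.05% of them. Of the ELR ligand UMIs in this cluster Cxcl2 made 82.12% and 76.88% and Cxcl3 17.38% and 21.03%, whereas Cxcl2 made 94.17% to 99.52% in neutrophil-like clusters. Cxcl1 was at 60.22 and 152.8 CPM in 12 and 15 cells. Cxcl5 was again carried by 1 cell in each library.

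The other genes of the pathway were taken from lists. All values that follow are of neutrophil-like cells, where 2.29% of all genes were past 1.5-fold higher and 7.41% lower. Among 10 further ligands, receptors and scavengers of the system, 2 had enough UMIs: Mif, a ligand of Cxcr2 and Cxcr4, was at 54.85 and 98.63 CPM, past 1.5-fold lower at 0.5561 (0.5208 to 0.5936), and its receptor Cd74 was at 302.7 and 447.7 CPM, between the limits. Of 22 chemokine receptor signalling genes, 18 had enough UMIs and 1 was past 1.5-fold, Rgs1, a brake on G protein signalling, at 68.19 and 147.1 CPM (0.4636), a share near that of all genes. Over all kept cells Mif was at 120.6 and 119.3 CPM and Rgs1 at 182.2 and 203.4 CPM. None of 6 other chemoattractant receptors with enough UMIs passed, and the highest was Ccr1 at 1342.9 and 1023.1 CPM. The lists had medians of -0.64, -0.11 and 0.14 on the log2 scale, beside -0.10 over all genes.

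In the same cells, of 12 inducers and inducer receptors with enough UMIs, Tnf, a cytokine that induces the ELR ligands, was higher at 162.4 and 100.2 CPM (1.621). Il1b was at 13633.2 and 13316.5 CPM. In the list of NF-kB and mRNA decay genes, 12 had enough UMIs. Nfkbiz, an NF-kB cofactor, was past 1.5-fold higher at 1197.3 and 769.7 CPM (1.556), and Zfp36l2, an mRNA decay protein, was lower at 322.3 and 617.5 CPM (0.5219). Nfkbia, at 2941.3 and 2068.0 CPM, was between the limits at 1.422. The ageing and activation list has 14 genes, Cxcr4 among them, and 13 had enough UMIs. Of these, Ccl3 (1.576) and Ccl4 (2.109) were higher and Itgax (0.5943) and Siglecf (0.3766) lower. The medians of those lists were -0.02, 0.32 and 0.16.

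Cxcr1, the other receptor of ELR-type ligands in mice, has few UMIs and was picked out after its values were seen. In neutrophil-like cells it had 31 UMIs in 30 of 4795 cells of 10% Tet2-/- BMT and 509 UMIs in 334 of 6628 cells of 10% Tet2+/+ BMT. That is 1.334 CPM (0.9062 to 1.893) and 15.65 CPM (14.32 to 17.08), a ratio of 10% Tet2+/+ BMT over 10% Tet2-/- BMT of 11.74 (8.166 to 17.46). Both levels lie below the 50 CPM limit, so the difference was not among those that could be called large. Cxcr1 was lower in 10% Tet2-/- BMT in all 8 clusters, for example at 2.476 and 32.64 CPM in the Csf3r-led cluster and 1.006 and 23.75 CPM in the Jaml-led one. The intervals overlapped in the Mmp8-led (1 and 3 UMIs), Retnlg-led (2 and 12 UMIs) and Siglecf-led (2 and 24 UMIs) clusters. Per 1000 Cxcr2 UMIs there were 1.301 and 12.21 Cxcr1 UMIs. Near-empty barcodes had more than the class, 3.795 and 30.61, from 2 and 24 Cxcr1 UMIs at 0.864 and 11.42 CPM. In 10% Tet2+/+ BMT the Siglecf-led (3.25 CPM), Retnlg-led (2.541 CPM) and Mmp8-led (0.6403 CPM) clusters lay below that level and the others above it. The part of free RNA in Cxcr1 was not tested. Cxcr1 lies on the same chromosome as Cxcr2, at mm10 chromosome 1, 74191785 to 74194631 on the minus strand, and begins 30539 bases past the end of Cxcr2. The labels do not give the strain or congenic background of donors and hosts, and the part of a difference at this locus in the value was not tested.

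**Figure D5:**
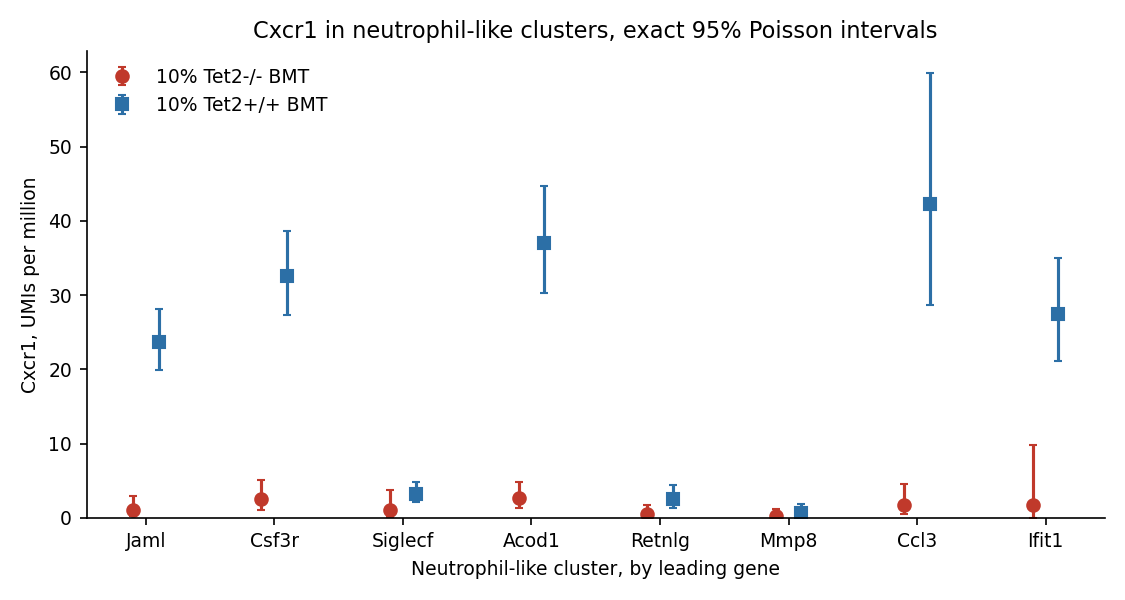
Cxcr1 in CPM in each of the 8 neutrophil-like clusters with exact 95% Poisson intervals, for the 10% Tet2-/- BMT library (circles) and the 10% Tet2+/+ BMT library (squares). The class level is 1.334 CPM and 15.65 CPM, and the 10% Tet2-/- BMT value is the lower of the pair in every cluster. The intervals of the pair overlap in the Mmp8-led, Retnlg-led and Siglecf-led clusters.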

How the data were processed

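Both libraries were made with Chromium 3′ chemistry, per the labels' protocols. The deposited matrices hold UMI counts per gene and barcode, which the authors made with Cell Ranger 6.1.2 on mm10, per the submitters' processing notes, while the matrix header names another version. Computed here were the filter on cells, clustering without the 7 genes and their close relatives, and summed CPM. Clustering used leidenalg 0.10.2, igraph 0.11.9 and scikit-learn 1.9.0 with 2000 variable genes, 30 components, 20 neighbours and Leiden resolution 1. Depth was 93919724 and 100782700 UMIs, of which kept cells held 85289763 and 87908757. A cluster was named where 3 or more markers of a type were enriched and its leading genes were not those of another type. Clusters led by gland transcripts, such as the Obp1a-led one, also stayed unnamed. So did shallow clusters with no marker among their leading genes, such as the Hpgds-led one. Scrublet, run through Scanpy 1.11.5, marked 0 and 0 cells, so it did not work here and doublets were kept. Scalings came from edgeR 4.0.16 (trimmed mean) and DESeq2 1.42.0 (median of ratios), with no model fitted. Named genes were the 7, list genes past 1.5-fold or the 3 highest, and those of most and least like pattern, 1 of which is not reported here. Alternatives covered filters, resolution, depth, doublets, free RNA, cluster mix and scaling. The scripts were checked on simulated data. The 7 genes, the lists and the tests were chosen with earlier results of these data known.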

Additional observations from a re-analysis of the deposited data

How the results depend on the processing

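No paired analysis was possible because each group has 1 library, and for the same reason no replicate was left out. Depth limits Cxcl1, Cxcl5 and Cxcl12, which rest on few cells. Counting error is small beside the choices that follow, and the cause of each change was not tested.

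The Cxcl2 ratio in neutrophil-like cells, 1.745, stayed above 1 under every alternative run. It was 1.827 with the 7 genes and their relatives kept for clustering, 1.821 at resolution 0.5, 2.846 in Y-carrying cells of both libraries, 1.685 without the Siglecf-led cluster, 2.166 with trimmed-mean and 2.233 with median-of-ratios scaling. It was 1.734 with free RNA subtracted, 1.764 as a mean of per-cell CPM and 1.206 with an equal cluster mix. The Cxcr2 ratio, 0.7999, was 0.8195, 0.8252, 0.7514, 0.7521, 0.9928 and 1.024 under the first 6 of these in that order, 0.7807 as a per-cell mean and 0.8366 with the equal mix.

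The Cxcl3 ratio, 1.091, turned below 1 without the Siglecf-led cluster (0.9663) and with an equal mix (0.5531), and was 3.393 in Y-carrying cells of both libraries. It was 1.355 with trimmed-mean and 1.397 with median-of-ratios scaling. The Cxcr4 ratio, 0.9277, turned above 1 under both scalings (1.151 and 1.187). Cxcr2 in Cxcl2-rich over Cxcl2-free cells was 0.8035 and 0.8625 with the 7 genes kept for clustering (10% Tet2-/- BMT first) and 0.7991 and 0.8605 at resolution 0.5, beside 0.975 and 0.9356, and at these 2 settings the intervals exclude 1 in both libraries. In 10% Tet2-/- BMT it was 1.197 in Y-carrying cells and 1.088 when thinned to 2000 UMIs. Genes past 1.5-fold, 229 in all, numbered 98 without the Siglecf-led cluster, 470 at a minimum of 10 CPM and 477 with no minimum.

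Added after seeing the data were the following. Without the Ccl3-led cluster, the ratios were 1.466 for Cxcl2, 0.8335 for Cxcr2 and 0.7987 for Cxcl3, and Cxcr2 in Cxcl2-rich cells was 1.202 and 1.037. Xist-only cells of 10% Tet2-/- BMT, set against Y-only cells of the other library, gave 1.263, 0.6969 and 0.6107 for those 3 genes. With Cxcl2-rich set at 80 UMIs or more, Cxcr2 was 0.4534 and 0.4326. Adding the unnamed cluster led by Obp1a left the ratios of Cxcl2 at 1.738 and Cxcr2 at 0.8038.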

Other observations

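Cxcr1 UMIs in near-empty barcodes numbered 2 and 24 (10% Tet2-/- BMT first), or 0.864 and 11.42 CPM. Within the 10% Tet2-/- BMT library, neutrophil-like cells with Y-linked transcripts alone had Cxcr1 at 4.111 CPM (1.335 to 9.594) from 5 UMIs, those with Xist alone at 1.069 CPM from 8 UMIs and those with neither at 1.251 CPM. In the 10% Tet2+/+ BMT library, cells with Y-linked transcripts alone were at 15.65 CPM and those with neither at 15.61 CPM.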
